A study of Mus musculus with 4 samples.

Results

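Hepatocyte growth factor (HGF), its receptor MET, the fibroblast growth factors FGF2, FGF7 and FGF10 and the receptors FGFR1, FGFR2 and FGFR3 were described across the cells of mouse pancreatic tumors. The 8 genes Hgf, Met, Fgf2, Fgf7, Fgf10, Fgfr1, Fgfr2 and Fgfr3 were chosen by name from the 27998 genes of the deposited tables, and each symbol stood for 1 gene ID. Single cells of 2 tumors from KPC mice were profiled with 10x Chromium 3' chemistry, which counts transcripts by unique molecular identifiers (UMIs). The mice carried KrasLSL-G12D/+, Trp53LSL-R172H/+ and Pdx1-Cre on a C57BL/6J background, so that both mutant alleles are switched on where Pdx1-Cre is active, in the pancreatic lineage. Every library came from this genotype, and no tumor-free group was analysed here. Each tumor gave an all live fraction (DAPI-) and a sorted CAF fraction, gated as DAPI-, CD45-, CD31-, EpCAM- and PDPN+ to obtain cancer-associated fibroblasts. The listed stain names an antibody against PDGFRa and none against EpCAM.

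HGF is made mainly by mesenchymal cells and activates MET, a receptor tyrosine kinase of epithelial and endothelial cells, to drive scattering, growth and survival. FGF7 and FGF10 are mesenchymal ligands that act on the epithelial splice form of FGFR2, and FGF10 is required for the growth of the embryonic pancreatic epithelium. FGF2 is a broad mitogen that binds FGFR1 and other receptors with heparan sulfate as a cofactor. The 3' counts do not separate splice forms, so the FGFR2 forms that differ in ligand binding were counted as 1 gene.

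The 4 libraries held 8282 barcodes and 85230726 UMIs, between 14972652 and 30950993 per library, with medians of 3287 to 13764 UMIs per barcode; 31 barcodes occurred in more than 1 library. After filtering, 7827 cells remained and were assigned to classes by marker genes, with the 8 genes and 69 other genes of both pathways left out of the clustering. Before any result it must be said that the sorted CAF library of tumor 1 went against its label: 76.2% of its 1386 cells (95% Clopper-Pearson interval 73.9 to 78.4) were ductal epithelial-like and 12.5% (10.8 to 14.3) fibroblast-like. In the sorted CAF library of tumor 2, 72.7% of 1209 cells (70.1 to 75.2) were fibroblast-like and 10.5% (8.83 to 12.4) ductal epithelial-like. Epcam, the epithelial antigen named in the gate, reached 6.85 CPM (UMIs of a gene scaled to all UMIs of the class in that library) in the ductal cells of the first of these libraries and 169 CPM in those of the second, against 56.4 and 1796 CPM in the ductal cells of the all live libraries. Pdpn, the gate's positive marker, reached 282 to 371 CPM in fibroblast-like cells and 0.55 to 11.5 CPM in ductal cells. Results are therefore also given without the cells of the sorted CAF library of tumor 1. Levels below are CPM of all UMIs of a class in a library, for classes of at least 20 cells, with exact Poisson 95% intervals that cover counting error only; they are compared within a gene and not between genes.

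Of the members, 7 had promoter entries in RefSeq (GRCm38.p6, the build that mm10 names), each running from 250 bases before to 50 bases after an annotated start. The promoters of Hgf, Fgf2 and Fgf7 are shown because these ligands were higher in fibroblast-like than in ductal cells, and that of Met because it went the other way. All 5 lie on the plus strand and are written 5′ to 3′, with capitals marking matches on either strand to the TATA box (letters TATAAA), the GC box (letters GGGCGG), the CCAAT box (those letters), the AP-1 site (letters TGANTCA) or the E-box (letters CACCTG).
Hgf, first start, chr5:16553245-16553544: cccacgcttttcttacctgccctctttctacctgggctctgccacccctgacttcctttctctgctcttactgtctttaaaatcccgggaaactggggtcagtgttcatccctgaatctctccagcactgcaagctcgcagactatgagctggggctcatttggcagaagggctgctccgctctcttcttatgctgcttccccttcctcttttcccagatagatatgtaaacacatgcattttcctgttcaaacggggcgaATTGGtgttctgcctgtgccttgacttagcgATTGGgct
Hgf, second start, chr5:16553651-16553950: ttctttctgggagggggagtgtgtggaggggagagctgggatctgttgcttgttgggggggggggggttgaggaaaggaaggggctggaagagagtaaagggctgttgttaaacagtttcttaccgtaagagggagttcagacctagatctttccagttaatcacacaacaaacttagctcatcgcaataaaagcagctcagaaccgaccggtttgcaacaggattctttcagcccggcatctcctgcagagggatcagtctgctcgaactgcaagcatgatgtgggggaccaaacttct
Fgf2, chr3:37348403-37348702: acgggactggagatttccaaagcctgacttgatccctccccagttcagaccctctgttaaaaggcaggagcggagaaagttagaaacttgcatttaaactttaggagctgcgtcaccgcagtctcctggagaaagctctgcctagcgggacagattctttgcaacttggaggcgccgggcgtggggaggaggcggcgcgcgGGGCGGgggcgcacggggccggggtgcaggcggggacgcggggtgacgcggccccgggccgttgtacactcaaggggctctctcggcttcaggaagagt
Fgf7, chr2:126034408-126034707: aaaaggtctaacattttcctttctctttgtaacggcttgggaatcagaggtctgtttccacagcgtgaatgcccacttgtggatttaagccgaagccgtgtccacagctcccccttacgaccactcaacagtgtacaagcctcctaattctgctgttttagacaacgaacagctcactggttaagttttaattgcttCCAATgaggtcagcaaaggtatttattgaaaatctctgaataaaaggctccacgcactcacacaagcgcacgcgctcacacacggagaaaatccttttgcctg
Met, chr6:17463707-17464006: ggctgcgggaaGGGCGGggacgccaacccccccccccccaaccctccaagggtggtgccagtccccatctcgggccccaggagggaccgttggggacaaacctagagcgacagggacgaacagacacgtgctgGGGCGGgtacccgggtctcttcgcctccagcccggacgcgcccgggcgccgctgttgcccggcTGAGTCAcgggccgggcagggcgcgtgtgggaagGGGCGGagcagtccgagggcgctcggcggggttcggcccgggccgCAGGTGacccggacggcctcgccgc
Of the windows shown, that of Met held the most matches, with 3 GC box matches, 1 AP-1 match, 1 E-box match, a GC content of 75.7% and 34 CpG dinucleotides. The Fgf2 window held 1 GC box match at 62.7% GC and 24 CpG. Windows of the other ligands were lower in GC, at 51.3% in both Hgf entries and 45.7% in Fgf7, and they held only CCAAT boxes, 2 at the first Hgf start, 1 in Fgf7 and 0 at the second Hgf start. Over 32851 promoters of the same length, the median GC content was 52.7% with 7 CpG; a TATA box was found in 13.6%, a GC box in 35.7%, a CCAAT box in 37.4%, an AP-1 site in 7.81% and an E-box in 20.2%. Of the windows not shown, Fgf10 (60.7% GC) held 1 GC box match, the Fgfr3 entries held 4 and 2, the first of them also 1 CCAAT box, and the Fgfr2 window (43.7% GC, 4 CpG) held no match to any of the 5 motifs.

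Hgf (chromosome 5, 16553495 to 16619439) gave 394 UMIs in 318 of the kept cells, and it was a transcript of both fibroblast-like and myeloid cells. In fibroblast-like cells it stood at 14.9 CPM (8.81 to 23.5) in the all live and 5.92 CPM (2.38 to 12.2) in the sorted CAF library of tumor 1. In tumor 2 the same libraries gave 18.3 CPM (9.77 to 31.4) and 20.02 CPM (17.4 to 22.9). Macrophage or monocyte-like cells had 4.17 CPM (2.33 to 6.88) in the all live library of tumor 1 and 12.2 CPM (9.70 to 15.2) in that of tumor 2. The range of the fibroblast-like libraries overlapped that of the macrophages, and both overlapped neutrophil-like cells, at 3.63 and 7.35 CPM. B or plasma-like cells of the all live libraries had 15.1 CPM (3 UMIs) in tumor 1 and 4.94 CPM (4 UMIs) in tumor 2. That class was mixed: 151 of its cells lay in a cluster led by T cell genes such as Txk and Cd3g beside Ms4a1 and Cd79a, with 3 macrophage markers. Its Lyz2, a myeloid gene, stood at 10835 and 6216 CPM, against 15248 and 12922 CPM in macrophages, and the part of such transcripts in its Hgf was not tested. Mesothelial-like cells, the lining cells of the abdominal organs, had 3.93 CPM (1.44 to 8.54), 3.47 CPM (1.13 to 8.09) and 3.61 CPM (0.74 to 10.5), from 6, 5 and 3 UMIs. Ductal cells held 1 Hgf UMI in all, in the all live library of tumor 1.

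The share of cells with an Hgf UMI also depends on the depth per cell. In the sorted CAF library of tumor 2, 18.3% of fibroblast-like cells (15.8 to 21.0) had at least 1 Hgf UMI at a median of 10627 UMIs per cell. Of the ductal cells in that library, which should lack the gene, 0 of 127 had one at a median of 16973 UMIs (95% Clopper-Pearson interval 0% to 2.86%). Cells of at least 2000 UMIs were also thinned to 2000 UMIs, and shallower cells were left out. The fibroblast-like share was then 3.98% in that library and between 1.73% and 4.55% in the other libraries. The macrophage share was 1.68% and 2.18% in the all live libraries. Of the macrophage or monocyte-like cells of tumor 2 over both fractions, 204 of 1689 were too shallow.

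Fgf7 (chromosome 2, 126034658 to 126091185), also called keratinocyte growth factor, stayed within a narrow range over the fibroblast-like libraries. It stood at 31.4 CPM (22.2 to 43.1) in the all live and 37.2 CPM (27.1 to 49.98) in the sorted CAF library of tumor 1. The corresponding values of tumor 2 were 40.9 CPM (27.4 to 58.8) and 34.2 CPM (30.7 to 37.8). All 4 exceeded the 15.1 CPM (4.91 to 35.3) of the 27 adipocyte-like cells of the sorted CAF library of tumor 2, whose interval reached into their range. Ductal cells had 0 to 0.85 CPM, and the macrophage, dendritic, endothelial, pericyte and T or NK-like sums had no Fgf7 UMI. A share of 19.1% to 26.3% of fibroblast-like cells held an Fgf7 UMI, at medians of 5273 to 10627 UMIs per cell, against 0% to 1.57% of ductal cells at medians of 7348 to 19158.

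Fgf10 (chromosome 13, 118714699 to 118792573) was scarce, with 84 UMIs in 59 cells, 73 of them in fibroblast-like cells. Its level there was 2.48 and 2.54 CPM in tumor 1 (3 UMIs in each library) and 5.65 and 5.89 CPM in tumor 2 (4 and 63 UMIs, all live before sorted CAF). The highest level of any class was 27.2 CPM (12.4 to 51.6) in the adipocyte-like cells, from 9 UMIs in 5 cells of 1 library. Ductal and mesothelial-like cells held 1 Fgf10 UMI each, and no immune class held any.

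Fgf2 (chromosome 3, 37348477 to 37410106) was shared by fibroblast-like and mesothelial-like cells. Fibroblast-like cells had 35.5 CPM (25.7 to 47.8) in the all live and 39.8 CPM (29.2 to 52.9) in the sorted CAF library of tumor 1, and 87.5 CPM (67.1 to 112) and 70.8 CPM (65.9 to 76.1) in those of tumor 2. Mesothelial-like cells had 31.4 CPM (23.2 to 41.6) and 36.0 CPM (26.9 to 47.3) in tumor 1 and 49.3 CPM (35.4 to 66.9) in the sorted CAF library of tumor 2. Both classes were thus higher in tumor 2, but its mesothelial-like value came from 1 library, with an interval that overlapped those of tumor 1. Between the classes, intervals overlapped within tumor 1. Within the sorted CAF library of tumor 2 they shared only 65.9 to 66.9 CPM. The adipocyte-like cells, with 90.6 CPM (61.2 to 129), overlapped the upper fibroblast-like values. Their 30 Fgf2 UMIs lay in 6 of the 30 adipocyte-like cells of tumor 2. Pericyte-like cells, contractile cells of small vessels that here also had UMIs of all 5 smooth muscle markers, had 8.66 and 11.2 CPM, from 1 and 6 UMIs, and ductal cells had 0.30 to 1.19 CPM.

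**Figure D1:**
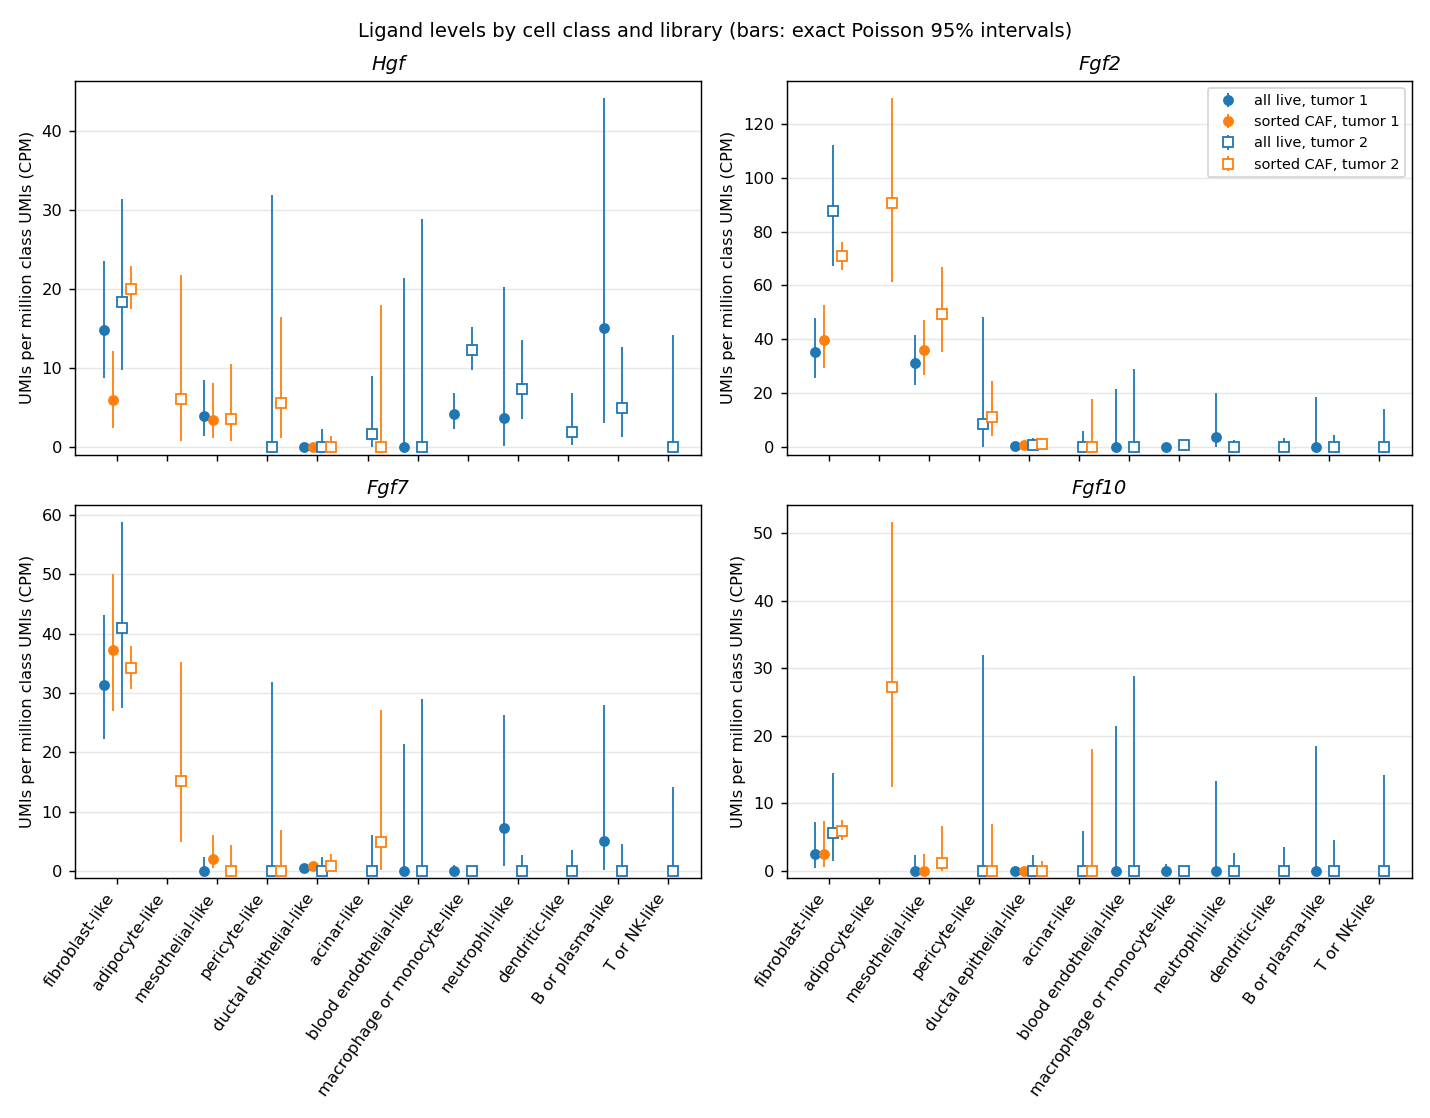
Levels of the 4 ligands (y axes, CPM of the class; x axes, cell classes with at least 20 cells in a library). Circles are tumor 1 and open squares tumor 2, blue is all live and orange sorted CAF, and bars are exact Poisson 95% intervals; the 4 fibroblast-like points of Fgf7 lie between 31.4 and 40.9 CPM, while Hgf is also seen in macrophages at 4.17 and 12.2 CPM.

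Met (chromosome 6, 17463349 to 17573980) was highest in ductal and mesothelial-like cells and, from few counts, in endothelial cells. Ductal cells of tumor 1 had 9.94 CPM (8.70 to 11.3) in the all live and 9.20 CPM (7.92 to 10.6) in the sorted CAF library. Those of tumor 2 had 33.2 CPM (24.8 to 43.5) and 35.6 CPM (28.6 to 43.7). The fractions of a tumor gave overlapping intervals, and the tumors did not overlap. The mesothelial-like cells had 15.05 CPM (9.54 to 22.6) and 11.8 CPM (6.87 to 18.9) in tumor 1 and 26.5 CPM (16.6 to 40.1) in tumor 2, within the ductal range. Blood endothelial-like cells held 1 Met UMI (5.82 CPM) in tumor 1 and 5 (39.2 CPM, 12.7 to 91.4) in tumor 2. Macrophages had 2.50 and 3.06 CPM, and fibroblast-like cells 0.37 to 2.54 CPM from 9 UMIs in all.

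Between 15.1% and 39.4% of ductal cells held a Met UMI, against 0.455% to 1.16% of fibroblast-like cells. Ductal cells were deeper in each library (medians of 7348 to 19158 against 5273 to 10627 UMIs). Thinned to 2000 UMIs, the ductal shares were 1.53% and 1.04% in tumor 1 and 4.09% and 7.09% in tumor 2, and the fibroblast-like shares 0% in 3 libraries and 0.909% in 1.

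Fgfr1 (chromosome 8, 25518759 to 25575718), the FGF receptor typical of mesenchymal cells, gave 2397 UMIs in 1231 cells. In fibroblast-like cells it reached 214.7 CPM (189 to 242) and 199 CPM (174 to 226) in tumor 1. The corresponding values in tumor 2 were 113 CPM (89.5 to 141) and 125 CPM (119 to 132). This order of the tumors was the reverse of that of Fgf2, and the intervals of the tumors did not overlap. The 27 adipocyte-like cells (84.6 CPM, 56.2 to 122) and the endothelial cells (93.0 CPM, 53.2 to 151, in tumor 1 and 54.9 CPM, 22.1 to 113, in tumor 2) came next and overlapped each other. An unnamed cluster of 155 cells in the all live library of tumor 2, led by Retnla, Ccl8, Lyve1 and Folr2, had 62.5 CPM (44.2 to 85.7); it carried 8 macrophage markers. Mesothelial-like cells had 24.1 to 33.3 CPM and dendritic-like cells 31.2 CPM. Ductal cells had 1.35 and 1.60 CPM in tumor 1 against 15.95 CPM (10.3 to 23.5) and 7.91 CPM (4.83 to 12.2) in tumor 2.

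Fgfr2 (chromosome 7, 130162451 to 130266808), the receptor of FGF7 and FGF10 in epithelium, gave 162 UMIs in 141 cells, most of the UMIs in fibroblast-like, mesothelial-like and ductal cells. Mesothelial-like cells of tumor 1 had 15.05 CPM (9.54 to 22.6) and 20.1 CPM (13.5 to 28.9), above the 3.61 CPM (0.74 to 10.5) of tumor 2. Ductal cells went the other way. They had 0.26 and 0 CPM in tumor 1 and 10.8 CPM (6.32 to 17.4) and 2.37 CPM (0.87 to 5.16) in tumor 2. At the count of 0, a floor of 3 counts among the 20009113 UMIs of the sorted CAF library stands for 0.15 CPM. Fibroblast-like cells had 0 to 5.92 CPM and overlapped both classes. The adipocyte-like cells had 21.1 CPM (8.50 to 43.6) from 7 UMIs.

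Fgfr3 (chromosome 5, 33721724 to 33737068) gave 59 UMIs in 49 cells, 39 of these UMIs in ductal cells. Ductal cells had 0.30 and 0.40 CPM in tumor 1 and 7.66 CPM (3.96 to 13.4) and 4.75 CPM (2.45 to 8.29) in tumor 2, so that the tumors were again apart. Mesothelial-like cells had 2.08 to 3.27 CPM and fibroblast-like cells 0.37 to 2.82 CPM, within the range of the ductal libraries. T or NK-like cells held no UMI of any of the 8 genes among 260168 UMIs, where a floor of 3 counts stands for 11.5 CPM.

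**Figure D2:**
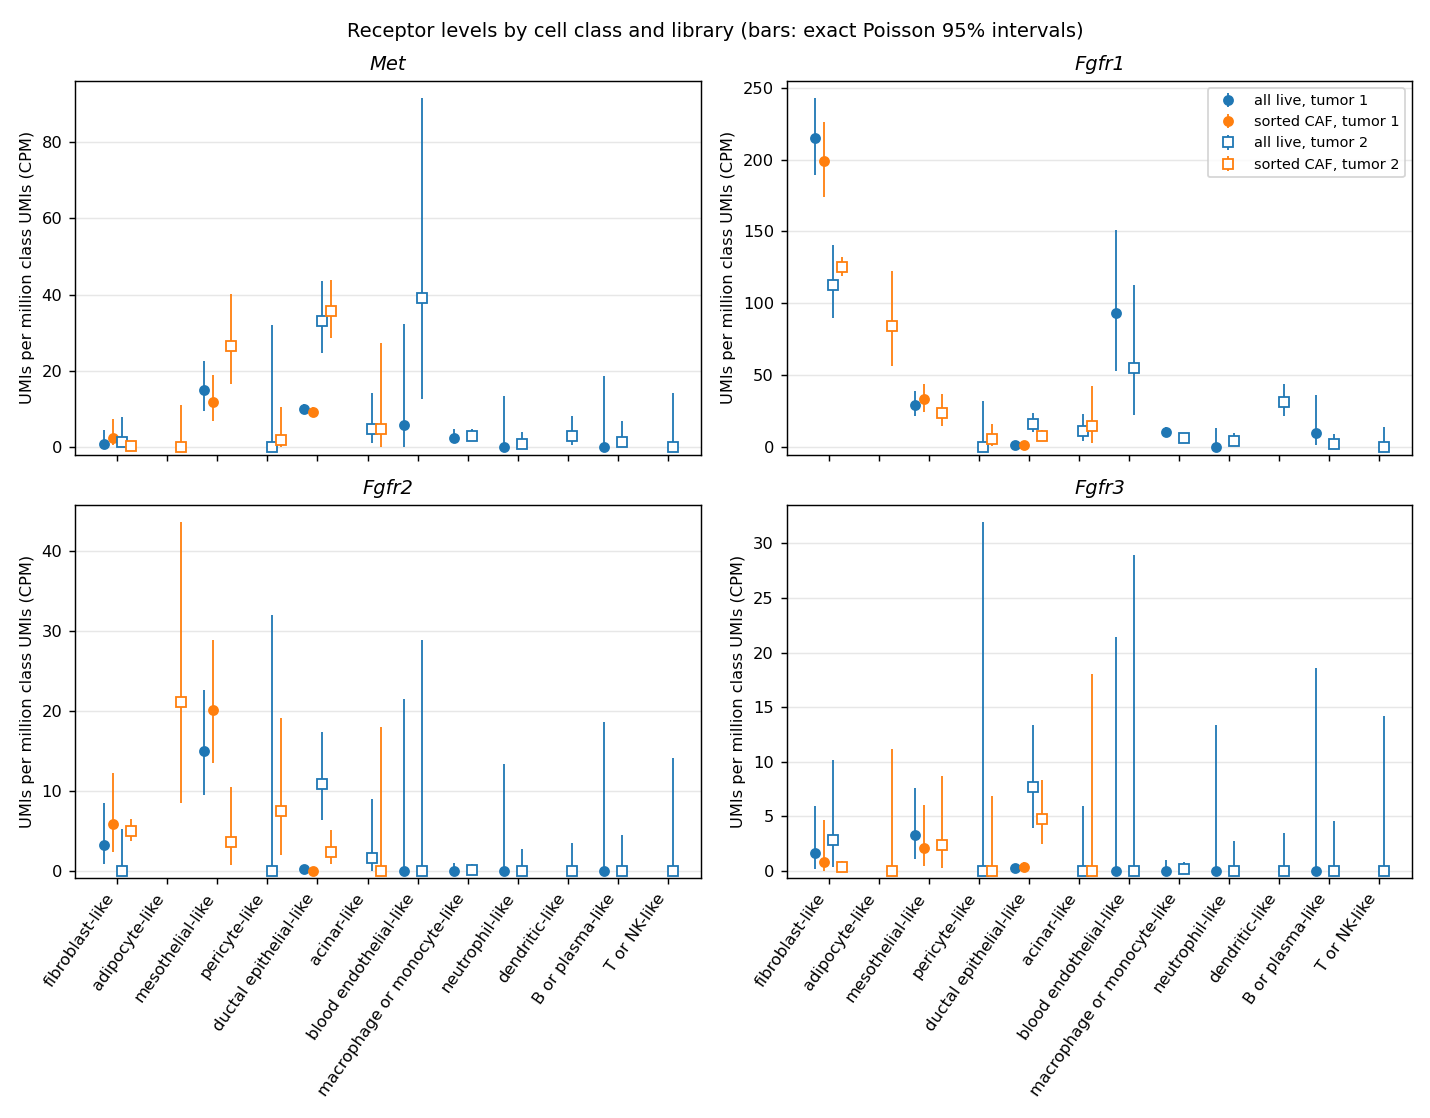
Levels of the 4 receptors (y axes, CPM of the class; x axes, cell classes; symbols and bars as in the plot of the ligands). Ductal points of tumor 2 (open squares) lie above those of tumor 1 (circles) for Met, at 33.2 and 35.6 against 9.94 and 9.20 CPM, and for the 3 FGF receptors.

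The tumors differed in which ductal cells they held. Fgfr1 and Fgfr2 differed between ductal clusters of tumor 1, while Met differed between the tumors within 1 cluster. Most ductal cells of tumor 2 (263 of 300) fell into 1 cluster, led by Agr2, Gkn3, Epcam and Tff2, while tumor 1 had 41 cells there and 390 to 633 in each of 4 other clusters. In tumor 2 this Epcam-rich cluster had 36.1 CPM of Met (119 UMIs), 12.1 of Fgfr1, 6.97 of Fgfr2 and 7.28 of Fgfr3. The 41 cells of tumor 1 in the same cluster had 13.3 CPM of Fgfr1 (6 UMIs), 8.90 of Fgfr2 (4 UMIs), 4.45 of Met (2 UMIs) and 0 of Fgfr3. The other clusters of tumor 1 had 8.33 to 11.9 CPM of Met and 0 to 0.11 CPM of Fgfr2. Among them, Fgfr1 stood at 5.23 CPM in the cluster led by Npy and Cpe and at 0.24 to 0.57 CPM in the rest. Tumor 2 also had cells in the cluster led by Cdc20 and Rrm2 (6 all live, 12 sorted CAF) and in the Npy cluster (4 and 15). These were too few for a level of their own. Tumor 1 held 144 of the 158 Met UMIs and 16431588 of the 16895405 UMIs of the Cdc20 cluster. In the Npy cluster it held 70 of 79 Met UMIs and 8407783 of 8741752 UMIs. Met stood at 8.76 CPM in the tumor 1 cells of the Cdc20 cluster and 8.33 CPM in those of the Npy cluster. Over both tumors the values were 9.35 and 9.04 CPM, so the few tumor 2 cells raised both. Within the Epcam-rich cluster the intervals of the tumors overlapped for Fgfr1 and Fgfr2, while those of Met, 0.54 to 16.1 in tumor 1 and 29.9 to 43.2 CPM in tumor 2, did not. With 1 tumor on each side no test was possible.

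Clusters of the macrophage or monocyte-like class also differed in these genes. The unnamed cluster led by Retnla and Ccl8 carried 8 macrophage markers but was not part of that class, its tests or its shares. In the all live library of tumor 2 it had 0 Hgf UMIs and 62.5 CPM of Fgfr1. The cluster led by Ms4a7, Pf4 and Stab1 had the most Hgf, 16.5 CPM (12.7 to 21.1; 64 UMIs in 995 cells), and 954 of its cells came from the all live library of tumor 2. A cluster led by Mmp12, Chil3 and Arg1, with 408 of 541 cells from the all live library of tumor 1, had 4.64 CPM of Hgf (2.71 to 7.43). The order was the opposite for Fgfr1, with 16.1 CPM (12.3 to 20.8) in the Mmp12 cluster and 1.29 CPM (0.42 to 3.01) in the Ms4a7 cluster. Monocyte-like cells with Ly6c2 had 8.47 CPM of Hgf (4.63 to 14.2) and 1.82 CPM of Fgfr1. A cycling cluster led by Top2a and Mki67, with 152 of 171 cells from the all live library of tumor 2, had 15.1 CPM of Fgfr1 (8.63 to 24.5) and 2.83 CPM of Hgf (0.58 to 8.28). Its intervals overlapped those of the Mmp12 cluster for both genes, and for Hgf, from 3 UMIs, also that of the Ly6c2 cells. Whether tumor or cluster went with these levels was not tested.

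The classes' shares of a gene's UMIs in the all live libraries depended on level, cell number and UMIs per cell. Median UMIs per cell were 19158 in ductal cells and 6749.5 in macrophages of tumor 1, and 7348 and 3385 in tumor 2. In tumor 1, fibroblast-like cells were 7.25% of cells and held 40.9% of the 44 Hgf UMIs (26.3 to 56.8), and macrophages, 25.0% of cells, held 34.1% (20.5 to 49.9). In tumor 2, where fibroblast-like cells were 3.45% and macrophages 50.2% of cells, the macrophages held 72.1% of the 111 Hgf UMIs (62.8 to 80.2) and the fibroblast-like cells 11.7% (6.39 to 19.2). Macrophages thus held most of the Hgf UMIs in tumor 2 and not in tumor 1. Fgf7 came from fibroblast-like cells for 70.4% of 54 UMIs (56.4 to 82.0) in tumor 1 and for all 29 UMIs in tumor 2 (lower bound 88.1%). Fgf2 of tumor 1 was split between mesothelial-like cells (48.5% of 99 UMIs, 38.3 to 58.7) and fibroblast-like cells (43.4%, 33.5 to 53.8), and that of tumor 2 was 83.8% fibroblast-like (73.4 to 91.3). On the receptor side, ductal cells held 87.1% of 263 Met UMIs (82.4 to 90.9) in tumor 1 and 57.8% of 90 (46.9 to 68.1) in tumor 2. The largest share of Fgfr2 was mesothelial-like in tumor 1 (69.7% of 33 UMIs, 51.3 to 84.4) and ductal in tumor 2 (85.0% of 20 UMIs, 62.1 to 96.8).

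**Figure D3:**
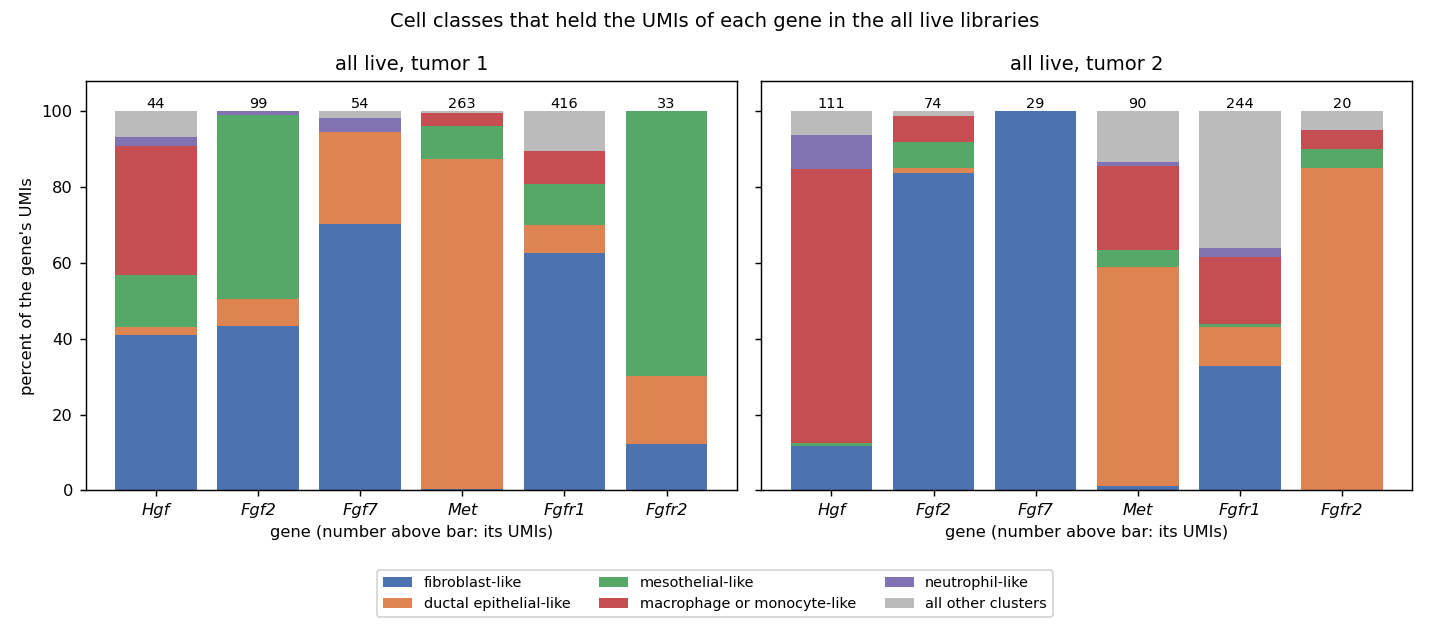
Share of each gene's UMIs by cell class in the all live libraries of tumor 1 (left) and tumor 2 (right); the y axis is percent of the gene's UMIs and the number above a bar is its UMI count. Macrophages (red) hold 34.1% of the Hgf UMIs in tumor 1 and 72.1% in tumor 2.

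The first comparison asked which members separate stroma from epithelium, with UMIs summed per tumor over both fractions and the tumor as replicate (n = 2 per class). The replicates are 2 tumors, so p-values measure only the spread between these sums. Hgf, Fgf2, Fgf7 and Fgfr1 were higher in fibroblast-like than in ductal cells and Met was lower; Fgf10 and Fgfr3 had too few counts to be tested. This makes 4 higher and 1 lower of the 6 members tested, where 21.2% of the 12601 genes tested were called, 12.8% higher and 8.39% lower. Their median log2 difference was 5.24, beside -0.06 over all genes tested. The tumors of one class did not overlap those of the other for these 5 members, nor for the untested Fgf10. The share of all genes with such a gap was not counted, so the gap is description only. Hgf, at 10.4 and 19.9 CPM in fibroblast-like cells of tumors 1 and 2 against 0.02 and 0 CPM in ductal cells, differed by 8.55 ± 0.95 (log2, SE; edgeR quasi-likelihood test, Benjamini-Hochberg adjusted p = 0.00079). Pooled over tumors, the 252 against 1 UMIs gave a ratio of 861 with a counting interval of 153 to 34160. Most of these fibroblast-like UMIs were from tumor 2 and the ductal UMI was from tumor 1, where 25 against 1 UMIs gave a ratio of 450 (73.6 to 18464). Met, at 1.67 and 0.44 CPM against 9.60 and 34.7 CPM, differed by -4.73 ± 0.84 (adjusted p = 0.0045). The call for Met was lost without the fibroblast-like sum of tumor 2 (adjusted p = 0.066). For Fgf2 the difference was 6.11 ± 0.86, for Fgf7 5.58 ± 0.81 and for Fgfr1 4.89 ± 0.83. Fgf7 passed the filter on low counts only because of its fibroblast-like sums. It could thus enter the tests of fibroblast-like cells, here and below, only as higher there, and the counts of members called include it. Its calls were kept with no filter. Fgfr2 was not called (0.97 ± 1.31, adjusted p = 0.67), being higher in the fibroblast-like cells of tumor 1 and lower in those of tumor 2. Fgf10, not tested, had 73 UMIs against 1, a pooled ratio of 250 (43.4 to 9990), and 6 against 1 within tumor 1, a ratio of 107.9 (13.1 to 4964).

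Traces of the other class were present on both sides. All 10 ductal markers had UMIs in the fibroblast-like cells of 2 libraries, 9 in the sorted CAF library of tumor 1 (Cldn4 at 0) and 6 in the all live library of tumor 2 (Krt7, Krt18, Krt19 and Cdh1 at 0). Their summed level was 36.7 to 766 CPM, against 7782 to 15797 CPM in ductal cells. The 9 fibroblast markers summed to 47.9 to 492 CPM in ductal cells, with Lum and Pdgfra at 0 in the all live library of tumor 2, against 26813 to 37484 CPM in fibroblast-like cells. Their part in these differences was not tested. Without the cells of the sorted CAF library of tumor 1 the same 5 members were called, with Hgf at 8.11, Met at -5.33, Fgf2 at 6.68, Fgf7 at 5.78 and Fgfr1 at 4.93.

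Against mesothelial-like cells, fibroblast-like cells differed less. Met was called lower and Fgf7 higher, 2 of 6 members tested, where 0.786% of genes were called, 0.389% higher and 0.397% lower. Met stood at 1.67 and 0.44 CPM against 13.5 and 28.7 CPM, a difference of -4.55 ± 0.85 (adjusted p = 0.0496). Fgf7, which passed the filter only because of its fibroblast-like sums, stood at 34.3 and 34.6 CPM against 1.01 and 0 CPM. The difference was 5.59 ± 0.96 (adjusted p = 0.047). Both calls lay next to the threshold and were lost in 6 of 11 other settings, among them each of the 4 that leave out 1 sum; both held without the sorted CAF library of tumor 1. Hgf (2.04 ± 0.67) and Fgfr1 (2.62 ± 0.75) were higher in both tumors and missed the threshold, and Fgf2 showed the smallest difference, 0.50 ± 0.67. Mesothelial-like cells also carried all 9 fibroblast markers, at a summed 16295 to 17345 CPM.

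Against macrophage or monocyte-like cells, Fgf2, Fgf7 and Fgfr1 were higher in fibroblast-like cells, 3 of 6 members tested, where 25.4% of genes were called, 14.7% higher and 10.6% lower. Fgf2 differed by 6.60 ± 0.94 (adjusted p = 0.0011) and Fgfr1 by 3.97 ± 0.79 (adjusted p = 0.0053). The Fgfr1 call was lost without the macrophage sum of tumor 2 (adjusted p = 0.058). Fgf7 had no UMI in macrophages and was at least 41.2-fold higher, and Fgf10 at least 3.01-fold higher, both against a floor of 3 counts in the macrophage sum of the same tumor, with the smaller value of the tumors given; the fit called Fgf7 (adjusted p = 0.00094) and Fgf10 was not tested. Hgf did not differ beyond the spread (0.60 ± 0.58, adjusted p = 0.52), at 10.4 and 19.9 CPM against 4.16 and 12.5 CPM. Met gave -2.10 ± 0.86 (adjusted p = 0.11) and was called with no filter on low counts (-2.13, adjusted p = 0.044) and with the sorted CAF library of tumor 1 left out (-2.67, adjusted p = 0.040).

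Ductal cells had less Hgf and less Fgf2 than mesothelial-like cells, 2 of 6 members tested, where 13.7% of genes were called, 4.52% higher and 9.2% lower. The differences were -6.51 ± 1.004 for Hgf (adjusted p = 0.0040) and -5.62 ± 0.86 for Fgf2 (adjusted p = 0.0038). Without the ductal sum of tumor 1 the call for Hgf was lost (adjusted p = 0.062). Met was not called between these classes, at 9.60 and 34.7 CPM against 13.5 and 28.7 CPM, a difference of 0.17 ± 0.66 (adjusted p = 0.91). Fgfr1 (-2.27 ± 0.77, adjusted p = 0.085) was lower in ductal cells of both tumors and missed the threshold. Compared with macrophages, ductal cells had less Hgf (-7.95 ± 0.95, adjusted p = 0.00055) and more Met (2.63 ± 0.71, adjusted p = 0.024), 2 of 6 members tested, where 24.4% of genes were called, 12% higher and 12.3% lower. The Met call was lost without the ductal sum of tumor 2 and without either macrophage sum, where the largest adjusted p was 0.13. With the tumor as a block the same members were called in each of these 5 comparisons of classes. The background was then 28.5% of genes against ductal, 2.13% against mesothelial-like and 32.6% against macrophage cells for fibroblast-like cells, and 20.4% and 32.4% for ductal against mesothelial-like and macrophage cells.

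**Figure D4:**
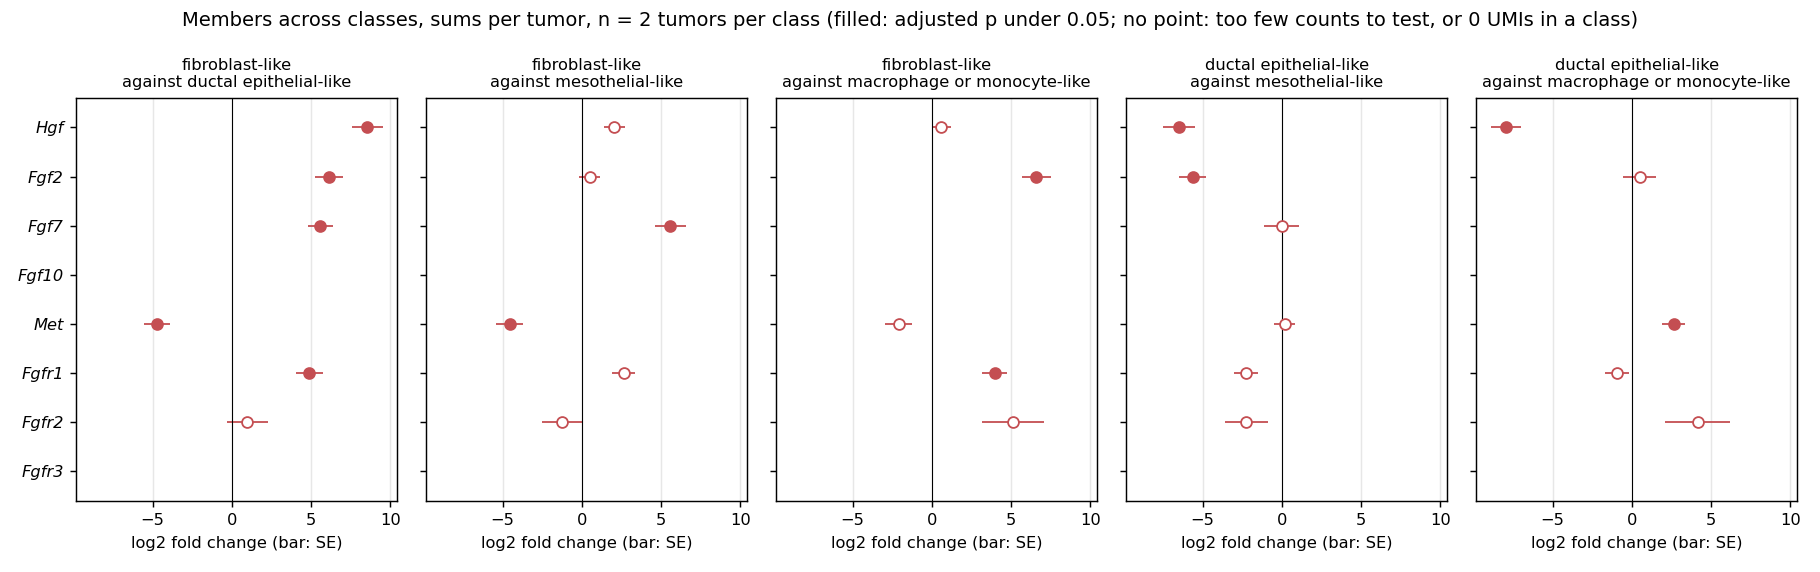
Log2 fold changes of the members (x axes, bars are SE) in 5 comparisons of classes with n = 2 tumors per class; filled points have an adjusted p under 0.05, and a gene with no point was not tested or had 0 UMIs in a class. Hgf lies at 8.55 against ductal cells and near 0.60 against macrophages.

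Among fibroblast-like cells, inflammatory-like cells (28 in tumor 1 and 258 in tumor 2, with 7 or 8 of the 10 markers of that list per subcluster, such as Clec3b, Dpt and Cxcl12) were compared with myofibroblast-like cells (53 and 333). These names rest on a second clustering, and the remaining fibroblast-like cells stayed unnamed. Of the myofibroblast-like cells, 247 lay in a subcluster that met 6 of the 10 markers of its list. The other 139 lay in a cycling subcluster, led by Pbk, Cdc20 and Mki67, that met 3, the minimum for a name. Fgf10 was higher in the inflammatory-like cells, at 10.5 and 13.2 CPM (2 and 35 UMIs) against 0 and 1.80 CPM (0 and 8 UMIs). The difference was 3.15 ± 0.77 (adjusted p = 0.048), which makes 1 of 5 members tested where 4.42% of genes were called, 2.32% higher and 2.1% lower. The call was lost in 5 of 8 other settings, with DESeq2 (adjusted p = 0.30), without tumor 1 on either side (0.095 and 0.057), with doublet calls kept (0.10) and at another cluster resolution (0.11). With the tumor as a block, Hgf (1.45, adjusted p = 0.020), Fgfr1 (0.95, adjusted p = 0.0079) and Fgf10 (3.13, adjusted p = 0.0030) were called, 3 of 5 members, where 14.4% of genes were called. Fgfr1 stood at 226 and 165 CPM against 116 and 92.7 CPM, higher in inflammatory-like cells of both tumors. Hgf stood at 10.5 and 31.6 CPM (2 and 84 UMIs) against 6.33 and 11.95 CPM (4 and 53 UMIs). Its tumor 1 intervals, 1.27 to 37.9 and 1.72 to 16.2 CPM, were too wide to order the subclasses there. Fgf7 (15.7 and 45.9 against 9.50 and 27.3 CPM) and Fgf2 (47.2 and 85.4 against 30.1 and 69.0 CPM) had the same order in each tumor and were not called. Their tumor 1 intervals overlapped too, those of Fgf7 from 3 against 6 UMIs. Fgfr3 had 0 UMIs in inflammatory-like and 7 in myofibroblast-like cells.

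The subclusters behind these names were not alike. In tumor 2 the inflammatory-like subcluster led by Cxcl13, Lrg1 and Steap4 (144 cells) had 45.5 CPM of Hgf, 63.8 of Fgf7 and 22.4 of Fgf10. The other inflammatory-like subcluster, led by Sema3c and Cd55 (114 cells), had 14.3 CPM of Hgf, 23.6 of Fgf7 and 1.69 of Fgf10. It had instead the highest Fgf2 of tumor 2, 103 CPM, and 192 CPM of Fgfr1. Of the 35 inflammatory-like Fgf10 UMIs of tumor 2, 33 came from the Cxcl13 subcluster. The myofibroblast-like cells of tumor 2, in a subcluster led by Spp1 and Tnc and a cycling one, had 11.2 and 13.2 CPM of Hgf and 27.4 and 27.0 of Fgf7. Their Fgfr1 levels were 98.6 and 82.9 CPM. In tumor 1 most fibroblast-like cells (194 of 311) lay in an unnamed subcluster led by Gpnmb and Cpxm2, which had 258 CPM of Fgfr1, 47.5 of Fgf7 and 3.96 of Hgf. Only 6 cells of tumor 2 fell into it.

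**Figure D5:**
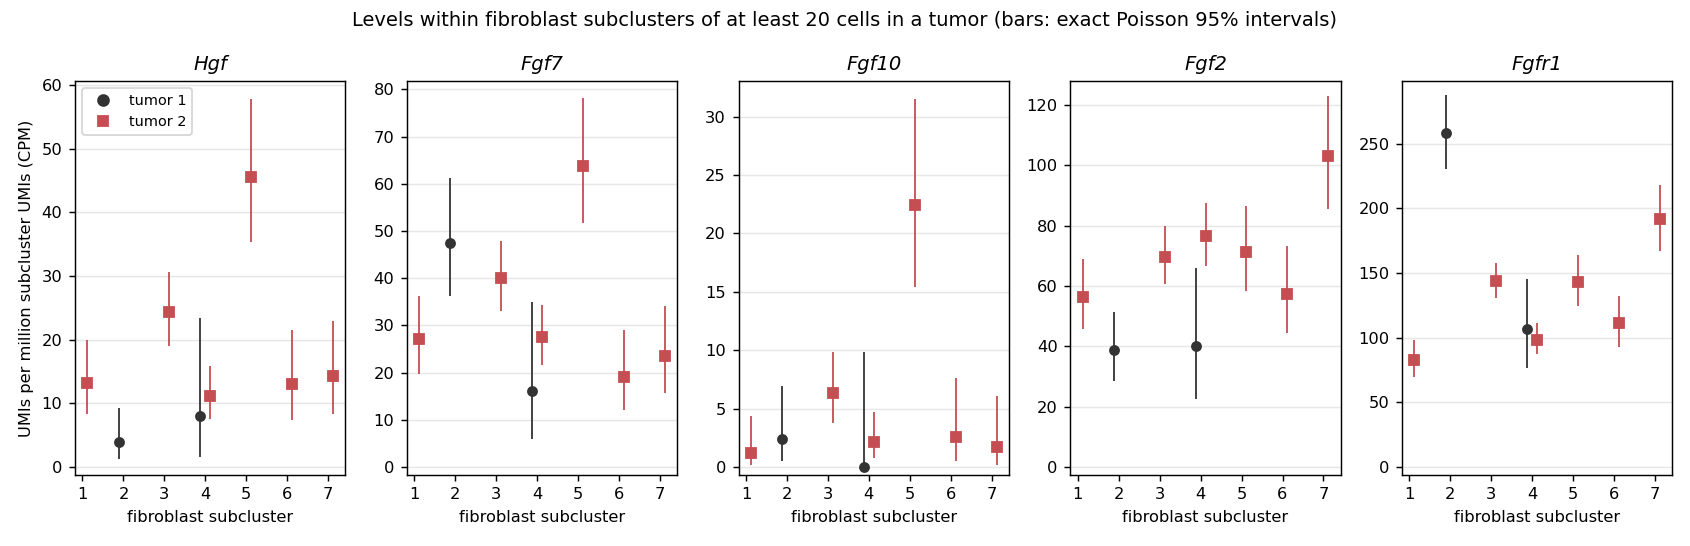
Levels of 5 members in fibroblast subclusters (x axes, subcluster number; y axes, CPM of the subcluster) for tumor 1 (circles) and tumor 2 (squares), with exact Poisson 95% intervals. Subcluster 5, led by Cxcl13, has the highest Hgf (45.5 CPM), Fgf7 (63.8 CPM) and Fgf10 (22.4 CPM) points, and subcluster 7 the highest Fgf2 point (103 CPM).

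Sorting itself was compared at the level of whole libraries and within classes. Between sorted CAF and all live libraries no member was called, 0 of 7 tested, where 0% of 14035 genes were called by edgeR; 536 genes had an unadjusted p under 0.05, none of them a member, and DESeq2 called 443 genes and no member. Fgf7 stood at 2.86 and 24.4 CPM in the sorted CAF libraries against 1.79 and 2.08 CPM in the all live ones. Fgf2 stood at 5.29 and 54.5 against 3.28 and 5.31 CPM, and Fgfr1 at 13.9 and 92.6 against 13.8 and 17.5 CPM. In tumor 2, whose sorted library held mainly fibroblast-like cells, all 3 values were well above those of the all live library, while in tumor 1 the gaps were small. Without the sorted CAF library of tumor 1, Fgf7 (3.51) and Fgf2 (3.53, both adjusted p = 0.24) missed the threshold as well. Hgf went opposite ways, at 0.57 and 14.7 against 1.46 and 7.97 CPM. Met did not follow the sort, at 8.98 and 7.75 against 8.70 and 6.46 CPM.

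Within fibroblast-like cells no member was called between the fractions, 0 of 4 tested, where 0% of 8641 genes were called (63 genes at an unadjusted p under 0.05, 14 called by DESeq2, 82 or 0.949% with the tumor as a block, none a member). The estimates were -0.18 ± 0.60 for Hgf, -0.11 ± 0.51 for Fgf2, -0.03 ± 0.33 for Fgf7 and -0.04 ± 0.38 for Fgfr1. Neutrophil markers moved with the fraction here, at a summed 307 and 360 CPM in fibroblast-like cells of the all live libraries against 6.77 and 51.1 CPM in those of the sorted CAF libraries (6 and 7 against 3 and 6 of the 7 markers seen), and their part was not tested. Within ductal cells none of 5 members tested was called, where 0% of 12245 genes were (92 at an unadjusted p under 0.05, 30 called by DESeq2, 136 or 1.11% with the block, none a member). Met gave 0.12 ± 0.83 there and Fgfr2 -2.38 ± 2.61.

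Of the 69 other genes of both pathways, 44 could be tested between classes. Between fibroblast-like and ductal cells 9 were higher and 7 lower, where 12.8% and 8.39% of all genes were, with a median log2 difference of 0.14 beside -0.06 over all genes. Of the 6 HGF activation genes tested, 4 were lower in fibroblast-like cells, 1 was higher and 1 was not called. The higher one, named after its values were seen, was Plau (urokinase), at 12.5 and 16.3 CPM against 0.999 and 2.20 CPM. Hgfac, the protease that activates pro-HGF, stood at 0 and 0.09 CPM in fibroblast-like against 14.1 and 34.4 CPM in ductal cells. St14 (matriptase, another activator) had 0 UMIs in fibroblast-like cells and stood at 1.02 and 17.8 CPM in ductal cells. Spint2, an inhibitor of these proteases, differed by -6.25 ± 1.28. Of the other receptors and co-receptors 4 were higher and 1 lower of 12 tested, and of the other FGF ligands 3 were higher and 0 lower of 4 tested. Gpc3 (8.30 ± 1.07), Gpc6 (7.30 ± 1.26) and Flrt2 (6.00 ± 0.63), surface proteins that can modulate FGF signalling, were higher, as were Fgf18 (5.24 ± 0.64) and Fgf21, from 27 UMIs against 0, at least 2.28-fold by the same floor of 3 counts within a tumor.

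Against mesothelial-like cells, Spry1, a feedback inhibitor of receptor tyrosine kinases, was higher in fibroblast-like cells (46.8 and 29.9 against 2.02 and 3.31 CPM) and Fgf1, a ligand of all FGF receptors, lower (7.94 and 7.90 against 79.1 and 89.3 CPM), 2 of 44 genes, where 0.786% of all genes were called and none of the 6 HGF activation genes was. Against macrophages, 16 of 44 were higher and 6 lower in fibroblast-like cells, where 14.7% and 10.6% of all genes were. Fgf18 and Gpc4 had no UMI in macrophages and were at least 30.6-fold and 22.9-fold higher, and Spint1, an HGF activator inhibitor, was lower (-6.32 ± 1.04). Between ductal and mesothelial-like cells 3 were higher and 5 lower of 44, where 4.52% and 9.2% of all genes were, led by Flrt2 (-8.38 ± 0.67), Gpc3 (-7.56 ± 1.05) and Hgfac (6.55 ± 0.99). Between ductal cells and macrophages 12 were higher and 4 lower of 44, where 12% and 12.3% of all genes were; the targets Spry4 (6.31 ± 0.99), Dusp4 (5.99 ± 1.16) and Etv4 (5.20 ± 1.07) were higher, Hgfac at least 16.9-fold, and Sdc3 lower (-5.30 ± 0.46).

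Within fibroblast-like cells 6 of 33 pathway genes tested were called between the subclasses, 2 higher and 4 lower, where 4.42% of all genes were called. Etv4 and Dusp4, genes switched on by FGF and other receptor tyrosine kinase signals, were lower in inflammatory-like cells: Etv4 had 0 and 0.38 CPM against 12.7 and 20.1 CPM (-5.28 ± 0.93, adjusted p = 0.011), and Dusp4 had 0 and 0.38 CPM against 28.5 and 7.44 CPM. The heparan sulfate proteoglycans Gpc1 (-5.04 ± 0.65) and Sdc1 (-3.90 ± 0.56) were lower too. Flrt3 (3.44 ± 0.73) and Fgf18 (3.01 ± 0.47) were higher in inflammatory-like cells. In the comparisons between fractions, of these pathway genes 47 were tested between libraries, 30 within fibroblast-like and 40 within ductal cells; none was called by edgeR, where 0% of all genes were, and none had an unadjusted p under 0.05.

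Genes with the most similar pattern were sought by Pearson correlation of log2(CPM + 1) over 26 sums of 12 named classes, which share libraries; only members with at least 200 UMIs were used. The closest to Hgf were Vcan (r = 0.86), Mmp19 (0.86) and Ccl7 (0.85). Fgf2 was followed by Zfhx4 (0.99), Loxl1 (0.97) and Bmper (0.96), Fgf7 by 6030408B16Rik (0.92), Mfap4 (0.90) and Kng1 (0.89), and Fgfr1 by Igf1 (0.85), Cpne8 (0.84) and Prrg3 (0.83). Met was closest to Itgb4 (0.90), Palmd (0.87) and Podxl (0.87).

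In single cells Hgf and Fgf7 were seen together in 48 of the 994 fibroblast-like cells of tumor 2. Of the 173 fibroblast-like cells of tumor 2 with an Hgf UMI, 27.7% also had an Fgf7 UMI and 5.20% an Fgf10 UMI, against 25.0% and 4.51% of the cells without Hgf, whose median depth was lower (9570 against 11304 UMIs). In tumor 1, 4 of the 16 cells with Hgf had Fgf7 and none had Fgf10. An Fgfr1 UMI was present in 177 of the 253 fibroblast-like cells of tumor 2 with Fgf7 and in 65.7% of those without it (medians of 12268 and 9234 UMIs). In tumor 1 the order was the opposite, 69.8% of 63 cells with Fgf7 against 74.2% without, at medians of 6489 and 6563.5 UMIs. In ductal cells of tumor 2, 18.4% of the 87 cells with a Met UMI also had an Fgfr1 UMI, against 6.10% of those without, at medians of 17452 and 8044 UMIs. In those of tumor 1 it was 0.855% of 351 cells with Met against 2.68% of those without, at medians of 25639 and 16913 UMIs. The direction thus differed between the tumors for both pairs, but the Fgf7 gaps were small and the Met value of tumor 1 came from 3 cells. No interval was computed for these shares, so a reversal between the tumors is not shown. Median depth was nearly equal for the Fgf7 split of tumor 1 and differed in the other splits for which it is given. The part of depth, and of the clusters the cells came from, was not tested.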

How the data were processed

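Per the submitters' processing notes, CASAVA 1.4 and Cell Ranger 2.0.0 with mm10 were used, and the authors deposited raw UMI counts per gene and barcode for 4 libraries. Barcodes under 500 detected genes or over 10% mitochondrial UMIs were removed, leaving 7984. Scrublet's own threshold marked 0.488% of them, so the highest scores at 0.8% per 1000 barcodes (157 cells) were left out, which left 7827. Cells were clustered with scanpy 1.11.5 (2000 variable genes, 30 components, 15 neighbours, Leiden resolution 1) and a cluster was named from at least 3 markers at 2-fold in 20% of its cells. It gave 27 clusters, of which 2 stayed unnamed (204 cells). UMIs were summed per class and tumor or library and tested with edgeR 4.0.16 (quasi-likelihood, TMM, filterByExpr, two-sided, Benjamini-Hochberg over all genes tested, threshold 0.05). The class sums entered 1 fit, so the comparisons share sums. DESeq2 1.42.0, no filter, a replicate block, left-out sums, doublets kept, another resolution, all live cells only and sorted CAF 1 left out were alternatives. Same-numbered libraries are from 1 tumor; their deviations correlated at 0.64, 0.67 and 0.87 in the 3 fraction comparisons. Scripts were tested on simulated data. The 8 members and the gene and marker lists were chosen with earlier results of these data known; all members are named, with up to 8 called pathway genes per comparison, the largest change first, and the 3 genes most alike in level for members with at least 200 UMIs. Library totals ran from 14972652 to 30950993 UMIs.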

Additional observations from a re-analysis of the deposited data

How the results depend on the processing

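In cells of at least 5000 UMIs, 53 of 53 levels lay within the Poisson interval of the full sum, sparse levels being left out of this check. These cells are part of that sum, so agreement was largely built in. The shallowest barcodes of tumor 1, at 4972 UMIs (all live) and 4040 UMIs (sorted CAF), were already close to the cut. The check therefore does not show that levels are independent of depth. Under the alternatives, 43 of 504 single-gene values changed sign, none of a called member. Leaving out the sorted CAF library of tumor 1 was chosen after seeing the data. With DESeq2, the numbers of genes called were 443 between libraries, 14 in fibroblast-like and 30 in ductal cells between fractions and 340 for fibroblast-like against mesothelial-like cells, and 0 members between the fibroblast subclasses; Fgfr3 between libraries was -0.013 and Fgf7 in ductal against mesothelial-like cells -0.068. With no filter they were 65, 2 and 757 genes in those fraction and mesothelial comparisons, 2848 for ductal against mesothelial-like cells, 793 between subclasses, and 6 and 5 members against macrophages for fibroblast-like and ductal cells; Fgf7 and Fgfr1 in fibroblast-like cells between fractions were 0.032 and 0.0041. With the replicate block, 82 and 136 genes were called between fractions in fibroblast-like and ductal cells, 268 against mesothelial-like cells, and 1340 genes and 3 members between subclasses, and Hgf between libraries was -0.21; the block changed no other member's call. With doublets kept, 45 genes and 0 members were called for fibroblast-like against mesothelial-like cells and 82 genes and 0 members between subclasses, and Fgf7 in ductal against mesothelial-like cells was -0.29. At another resolution, 152 genes and 0 members were called between subclasses, and in ductal against mesothelial-like cells Met was -0.22 and Fgf7 -0.21. With all live cells only, 1189, 2 (0 members) and 1984 genes were called for fibroblast-like against ductal, mesothelial-like and macrophage cells and 472 for ductal against mesothelial-like cells; Fgfr2 between fibroblast-like and ductal cells was -1.27 and Fgf2 between ductal cells and macrophages -0.48. Without the sorted CAF library of tumor 1, 667 genes were called between subclasses and that Fgf2 value was -0.083. The causes were not tested.

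Leaving out 1 sum at a time, where the lone sum is assumed to vary like the other groups, genes called ranged from 932 to 3362 (fibroblast-like against ductal), 0 to 7 (mesothelial-like, 0 members), 1672 to 2169 (macrophages), 549 to 2273 (ductal against mesothelial-like, 1 to 4 members), 1389 to 3449 (ductal against macrophages, 1 to 4 members), 63 to 513 (subclasses, 0 members) and 16 to 64 (fibroblast-like cells between fractions). Between libraries, Hgf ranged from -3.08 to 2.11, Met from -0.21 to 0.19, Fgfr1 from -0.22 to 2.43 and Fgfr3 from -0.60 to 0.66. In fibroblast-like cells between fractions, Hgf ranged from -1.51 to 0.33, Fgf2 from -0.68 to 0.75, Fgf7 from -0.27 to 0.24 and Fgfr1 from -0.36 to 0.44; in ductal cells, Met ranged from -0.97 to 0.97, Fgfr1 from -2.05 to 1.57 and Fgfr3 from -2.80 to 2.71. Between classes, the ranges were -0.16 to 4.69 for Fgfr2 (fibroblast-like against ductal), -0.10 to 0.91 for Fgf2 and -1.87 to 0.19 for Fgfr2 (against mesothelial-like), -0.0018 to 1.57 for Hgf (against macrophages), -0.76 to 0.79 for Met and -0.58 to 5.39 for Fgf7 (ductal against mesothelial-like), and -0.20 to 5.50 for Fgf2 and -2.59 to 0.15 for Fgfr1 (ductal against macrophages). Between subclasses, Fgf2 ranged from -0.16 to 1.38 and Fgf7 from -0.38 to 2.09. Low counts limit Fgf10, Fgfr2 and Fgfr3 most.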
